A study of Mus musculus with 5 samples.

Results

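The 10 genes described here encode secreted growth factors that act on blood vessels, connective tissue and epithelium: Vegfa, Vegfb, Vegfc and Pgf of the VEGF family, Pdgfc of the related PDGF family, Hgf, Igf1, and the EGF-family ligands Hbegf, Areg and Ereg. They were chosen by name, and all 10 were found by symbol among the 46983 genes of the count tables. All 10 also passed the filter on low counts that left 14580 genes for testing. The members and the lists below were chosen with earlier results of these data known.

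The libraries hold RNA of cells labelled as tumour-associated macrophages, sorted as CD45+ CD11b+ Ly6G- F4/80+ from orthotopic tumours of EO771, a mouse mammary carcinoma line, in mice of strain C57/BL6. In the Treg-ablated group (2 libraries) regulatory T (Treg) cells had been removed with diphtheria toxin, given in 2 doses of 50 µg per kg, and sorting followed 4 days later. The control group (3 libraries) came from tumours left untreated, so toxin and Treg loss cannot be told apart. The sources used here do not give the allele that made Treg cells sensitive to the toxin or the age of the mice. They also do not say whether each library came from its own animal. A p-value here sets the difference between groups against the spread of libraries within a group, and that spread could be technical alone.

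VEGF ligands bind receptor tyrosine kinases on endothelial cells: VEGF-A drives growth and leakiness of blood vessels, VEGF-C growth of lymphatic vessels, and VEGF-B and placental growth factor (Pgf) bind VEGF receptor 1. PDGF-CC, the product of Pdgfc, acts through PDGF receptors on fibroblasts and pericytes. HGF binds the receptor MET, and IGF-1 the IGF-1 receptor. Amphiregulin (Areg), epiregulin (Ereg) and HB-EGF (Hbegf) are made as membrane proteins, are cut free by the sheddase ADAM17, and activate EGF receptors. In tumours, macrophages and fibroblasts are both known sources of several of these factors.

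The depth was 15789199 and 13122668 counts in Treg-ablated replicates 1 and 2, against 14520524 to 20156835 counts in the controls. Transcripts listed as markers of fibroblasts were abundant, and which cells made them was not determined. Fibroblast markers (22 genes) had a median of 41.9 and 41.5 CPM per kilobase of exon after ablation, against 29.7 to 31.8 in controls. Macrophage markers (20 genes) had a median of 4.22 and 3.40 after ablation, against 5.47 to 6.30 in controls. CPM are counts scaled to 1000000 per library after TMM, a correction for library composition. Of the genes behind the sort gate, Adgre1 (F4/80) had 5.93 and 5.73 CPM after ablation, against 9.55 to 9.87 CPM in controls (log2 fold change −0.74, edgeR adjusted p = 0.00275), and Ly6g was at most 0.189 CPM. Ptprc (CD45) had 28.0 and 33.0 CPM after ablation, against 22.1 to 27.8 CPM in controls, and Itgam (CD11b) had 16.1 and 12.2 CPM after ablation, against 16.98 to 19.01 CPM in controls. Neither passed (log2 fold changes 0.32 and −0.32, edgeR adjusted p = 0.0655 and 0.0922), although the groups did not overlap. Values are therefore given for the libraries as labelled and are not assigned to a cell type. Fewer cells of a type and less RNA per cell cannot be told apart in such bulk libraries.

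Across the 10 genes the levels differed widely. In controls Vegfb was the highest per kilobase, at 31.7 to 34.0 CPM per kilobase, followed by Areg at 26.4 to 29.1. Hbegf (16.7 to 17.4) and Pdgfc (16.9 to 17.1) overlapped each other. Vegfc (9.13 to 11.0) overlapped both Vegfa (10.8 to 11.5) and Ereg (9.17 to 10.6), while Vegfa lay above Ereg in every control. Hgf, Pgf and Igf1 came last, at 1.45 to 1.52, 0.807 to 1.14 and 0.346 to 0.404 CPM per kilobase in the same libraries. Among all tested genes Areg stood at percentile 86.4 of the level per kilobase, and Igf1 at percentile 5.18. After ablation the order changed at both ends: Areg, at 47.7 and 42.1 CPM per kilobase, lay above Vegfb, at 35.6 and 34.4, and Hgf, at 0.614 and 0.714, no longer lay above Pgf, at 1.04 and 0.715.

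**Figure D1:**
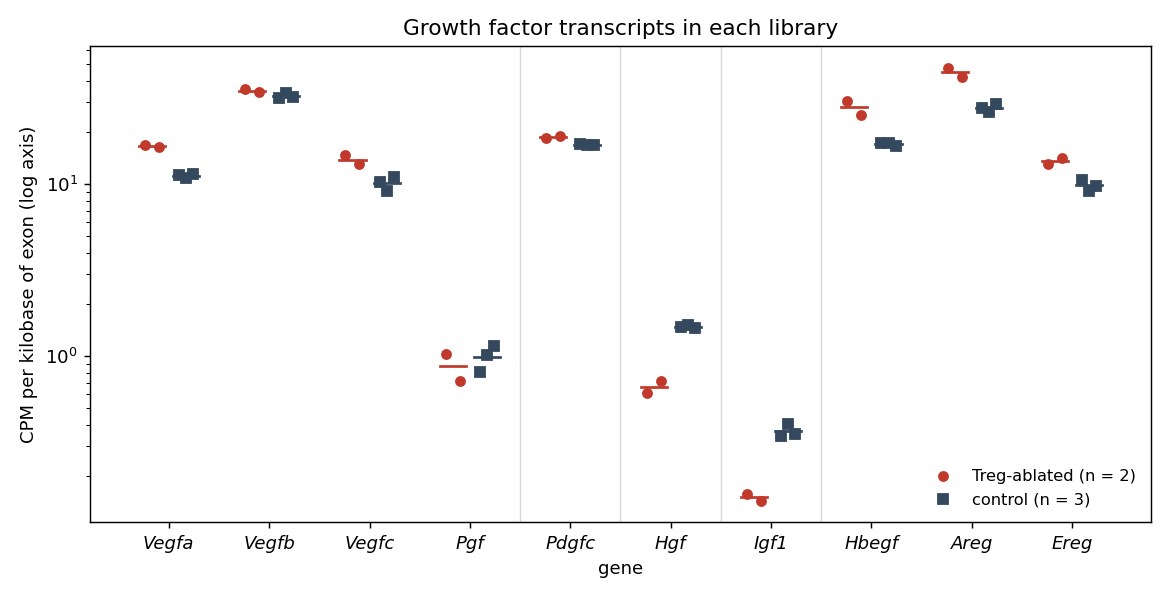
Level of each of the 10 genes in CPM per kilobase of exon (log axis). Points are libraries (circles: Treg-ablated, n = 2; squares: control, n = 3) and bars are group means. The Treg-ablated libraries lie above every control for 7 genes, and below every control for Hgf and Igf1. For Pgf replicate 1 lies among the controls and replicate 2 below them.

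After Treg ablation 5 of the 10 genes rose (Vegfa, Vegfc, Hbegf, Areg and Ereg), 2 fell (Hgf and Igf1) and 3 did not pass (Vegfb, Pdgfc and Pgf). The threshold was an adjusted p under 0.05 (edgeR quasi-likelihood test, Benjamini-Hochberg over 14580 genes). Of all tested genes 13.5% were called higher and 12.3% lower. The groups did not overlap for 7 members with higher and 2 with lower values after ablation, where 26.9% and 25.6% of all tested genes showed the same. The members' median log2 fold change was 0.31, against −0.006 over all tested genes. All 3 EGF-family members rose, while the VEGF family divided into Vegfa and Vegfc, which rose, and Vegfb and Pgf, which did not pass.

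The sequences before the start sites are shown for the rising genes Areg, Vegfa and Vegfc and for both falling genes, so that the surroundings of genes that moved in opposite directions can be read side by side. Each is the 250 bases before a RefSeq start (GRCm38.p6), given 5′ to 3′ on the strand of the gene. Capitals mark matches on either strand to the hypoxia response element core ACGTG, the AP-1 site TGANTCA, the cAMP response element TGACGTCA, the GC box GGGCGG or the TATA box TATAAA. The start for Igf1 lies 2846 bases inside the gene as the files annotate it, and the other starts coincide with those of the files.
Areg, chr5:91139349-91139598, plus strand: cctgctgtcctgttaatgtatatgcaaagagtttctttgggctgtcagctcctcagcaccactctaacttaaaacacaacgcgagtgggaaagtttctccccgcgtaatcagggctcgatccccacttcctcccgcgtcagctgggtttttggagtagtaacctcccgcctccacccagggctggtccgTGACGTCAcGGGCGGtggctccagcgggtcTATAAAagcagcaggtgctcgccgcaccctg
Vegfa, chr17:46032378-46032627, minus strand: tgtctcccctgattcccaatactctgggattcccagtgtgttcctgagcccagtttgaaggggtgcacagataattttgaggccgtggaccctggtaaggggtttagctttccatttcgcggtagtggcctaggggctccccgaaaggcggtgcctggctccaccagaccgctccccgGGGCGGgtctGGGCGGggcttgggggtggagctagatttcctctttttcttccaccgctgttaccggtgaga
Vegfc, chr8:54077282-54077531, plus strand: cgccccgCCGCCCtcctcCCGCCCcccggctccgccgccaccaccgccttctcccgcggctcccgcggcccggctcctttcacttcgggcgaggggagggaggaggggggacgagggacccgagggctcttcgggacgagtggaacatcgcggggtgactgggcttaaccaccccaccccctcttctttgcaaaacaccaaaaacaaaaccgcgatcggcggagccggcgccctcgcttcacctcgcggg
Hgf, chr5:16553245-16553494, plus strand: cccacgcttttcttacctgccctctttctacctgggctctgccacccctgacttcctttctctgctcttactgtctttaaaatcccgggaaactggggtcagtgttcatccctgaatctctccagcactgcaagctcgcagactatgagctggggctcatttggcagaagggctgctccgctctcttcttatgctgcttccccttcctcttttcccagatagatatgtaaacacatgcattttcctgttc
Igf1, chr10:87860861-87861110, plus strand: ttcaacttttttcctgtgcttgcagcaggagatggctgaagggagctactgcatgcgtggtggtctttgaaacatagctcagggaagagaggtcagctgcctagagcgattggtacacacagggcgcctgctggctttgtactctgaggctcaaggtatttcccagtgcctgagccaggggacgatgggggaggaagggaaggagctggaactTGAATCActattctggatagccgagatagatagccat

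Windows of 8 of the 10 genes were searched, 11 in all. Ereg had no entry in the RefSeq promoter table. Hbegf was left out of the search, so nothing is said here of its motifs. The Areg window held a cAMP response element 61 bases before the start, a GC box at 52 and a TATA box at 31 bases, which 1.55%, 32.7% and 12.4% of 32851 promoter windows of the same length also hold. The Vegfa window shown held 2 GC boxes, and so did that of Vegfc. The window of Hgf held no match to any of the 5 motifs. That of Igf1 held 1 match to the AP-1 pattern, TGAATCA. The pattern left the middle base free, and 6.75% of all windows match it. Among the windows searched, the hypoxia core was found only at a second, internal RefSeq start of Vegfa, 211 bases before it (16.6% of all windows). GC boxes were the only motif shared between the genes searched, in 5 of the 8. These were Areg, Vegfa and Vegfc, which rose, and also Vegfb and Pgf, which did not pass. The 11 windows had a median GC content of 59.2%, against 52.4% over all promoter windows. A link between these motifs and the changes was not tested. These are matches of letters, not measured sites of binding.

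Hbegf (ENSMUSG00000024486, chromosome 18, 36504929 to 36515805, minus strand, GRCm38 as for all positions below) encodes the heparin-binding EGF-like factor. It had 72.6 and 60.3 CPM in the Treg-ablated libraries, against 41.3, 41.1 and 39.7 CPM in the controls. Both Treg-ablated libraries lay above every control, with replicate 1 the higher one. The change was 1.63-fold (log2 fold change 0.71, SE 0.0866, edgeR adjusted p = 0.000628).

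Areg (ENSMUSG00000029378, chromosome 5, 91139599 to 91148432, plus strand) encodes amphiregulin, which is also known as a tissue repair factor made by Treg cells themselves. It had 57.9 and 51.2 CPM after ablation, against 33.5, 32.1 and 35.4 CPM in controls, again without overlap. The log2 fold change was 0.70 (SE 0.0826, edgeR adjusted p = 0.000521), close in size to that of Hbegf. Per kilobase the ratio of Hbegf to Areg within a library averaged 0.622 ± 0.0277 after ablation and 0.620 ± 0.0418 in controls (SD, n = 2 and 3).

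Ereg (ENSMUSG00000029377, chromosome 5, 91074622 to 91093646, plus strand) encodes epiregulin and lies 46.0 kb before Areg. It had 54.2 and 59.0 CPM after ablation, against 43.9, 37.9 and 40.2 CPM in controls. The groups did not overlap, and here replicate 2 was the higher of the Treg-ablated libraries. The log2 fold change was 0.48 (SE 0.0838, edgeR adjusted p = 0.00323). Ereg has the lowest GC content of the 10 genes, 39.2%, at percentile 2.79 of the tested genes. With an offset for GC content its log2 fold change was smaller, 0.34, and the call remained. A gene annotated on the other strand, Gm19610, shares 3.42% of the exonic bases of Ereg and had 120 counts over all libraries, so reads of these bases are uncertain for want of a strand setting.

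Ereg and Areg belong to a cluster of EGF-family genes on chromosome 5 whose other members are Epgn, which encodes epigen and lies 39.4 kb before Ereg, and Btc, which encodes betacellulin, 208.8 kb after Areg on the opposite strand. The cluster was uneven. Epgn had 0 and 1 counts after ablation and 1, 1 and 2 counts in controls, too few to show a difference. Btc was low, with 28 and 24 counts after ablation, against 15, 17 and 10 counts in controls, and was 2.08-fold higher (log2 fold change 1.06, SE 0.284, edgeR adjusted p = 0.0212). The call for Btc was lost with DESeq2 (adjusted p = 0.106), with the replicate block (edgeR adjusted p = 0.068) and without Treg-ablated replicate 1, Treg-ablated replicate 2 or control replicate 2 (edgeR adjusted p = 0.0779 to 0.0848), whereas Areg and Ereg passed in each of these fits. None of the 3 passed when tested against a fold of 1.5. Summed per kilobase, Hbegf, Areg and Ereg made up 51.0% and 49.2% of the total of the 10 genes after ablation, against 41.8% to 43.3% in controls.

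Vegfa (ENSMUSG00000023951, chromosome 17, 46016993 to 46032377, minus strand) encodes the main growth factor of blood vessel endothelium. It had 72.7 and 70.7 CPM after ablation, against 48.3, 46.5 and 49.5 CPM in controls. Replicates lay close together and the groups were far apart. The change was 1.49-fold (log2 fold change 0.58, SE 0.0687, edgeR adjusted p = 0.000551).

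Vegfc (ENSMUSG00000031520, chromosome 8, 54077532 to 54186454, plus strand) encodes the lymphatic growth factor VEGF-C. It had 27.8 and 24.6 CPM after ablation, against 19.3, 17.2 and 20.7 CPM in controls. The groups did not overlap, and replicates varied more than those of Vegfa. The log2 fold change was 0.47 (SE 0.106, edgeR adjusted p = 0.0106). The call ended without Treg-ablated replicate 1 (log2 fold change 0.37, adjusted p = 0.0580 by edgeR) and without control replicate 2 (0.39, adjusted p = 0.0664 by edgeR).

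Vegfb (ENSMUSG00000024962, chromosome 19, 6982473 to 6987651, minus strand) encodes VEGF-B. It had 57.2 and 55.1 CPM after ablation, against 50.9, 54.5 and 51.6 CPM in controls. Both Treg-ablated libraries were higher than all controls, by little, and the test did not pass (log2 fold change 0.10, SE 0.0711, edgeR adjusted p = 0.325). With an offset for GC content it passed as higher (0.23, adjusted p = 0.0296 by edgeR). Vegfb has the highest GC content of the 10 genes, 61.1%, at percentile 98.3 of the tested genes. Within a library, the ratio of Vegfa to Vegfb per kilobase was 0.476 and 0.479 after ablation, against 0.355, 0.319 and 0.358 in controls.

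Pgf (ENSMUSG00000004791, chromosome 12, 85166639 to 85177296, minus strand) encodes placental growth factor. It rested on few reads, 26 and 15 counts after ablation and 19, 32 and 26 counts in controls. In CPM these were 1.64 and 1.13 after ablation, against 1.28, 1.603 and 1.81 in controls, with overlapping groups. Its log2 fold change of −0.16 had an SE of 0.291 (edgeR adjusted p = 0.728), so a change of moderate size in either direction was not detectable at this depth.

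Pdgfc (ENSMUSG00000028019, chromosome 3, 81036416 to 81214040, plus strand) encodes the PDGF-C chain and had the most counts of the 10 genes. It had 94.5 and 97.7 CPM after ablation, against 87.1, 86.2 and 86.5 CPM in controls. The groups did not overlap, yet the difference was small and did not pass (log2 fold change 0.15, SE 0.0641, edgeR adjusted p = 0.111). Its relative Pdgfa, which encodes the PDGF-A chain, moved further: 33.7 and 26.3 CPM after ablation, against 14.7, 13.02 and 13.2 CPM in controls, 2.21-fold higher (log2 fold change 1.15, SE 0.120, edgeR adjusted p = 0.000302).

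Hgf (ENSMUSG00000028864, chromosome 5, 16553495 to 16620152, plus strand) encodes hepatocyte growth factor, a factor of mesenchymal and myeloid cells that acts on epithelium and endothelium. It had 4.41 and 5.13 CPM after ablation, against 10.6, 10.9 and 10.4 CPM in controls. The highest Treg-ablated library was below the lowest control by a wide margin, on 70 and 68 counts after ablation and 150 to 218 counts in controls. Hgf fell 2.25-fold (log2 fold change −1.17, SE 0.134, edgeR adjusted p = 0.000455).

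Igf1 (ENSMUSG00000020053, chromosome 10, 87858265 to 87937042, plus strand) encodes insulin-like growth factor 1. It was the lowest of the 10 genes per kilobase, with 25 and 19 counts after ablation and 51, 80 and 50 counts in controls. Scaled, these were 1.58 and 1.43 CPM after ablation, against 3.43, 4.01 and 3.48 CPM in controls, without overlap. Igf1 fell 2.42-fold (log2 fold change −1.27, SE 0.220, edgeR adjusted p = 0.00294). The ratio of Hgf to Igf1 per kilobase averaged 4.40 ± 0.759 after ablation and 4.05 ± 0.267 in controls (SD, n = 2 and 3), a difference within the SD of the Treg-ablated libraries.

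**Figure D2:**
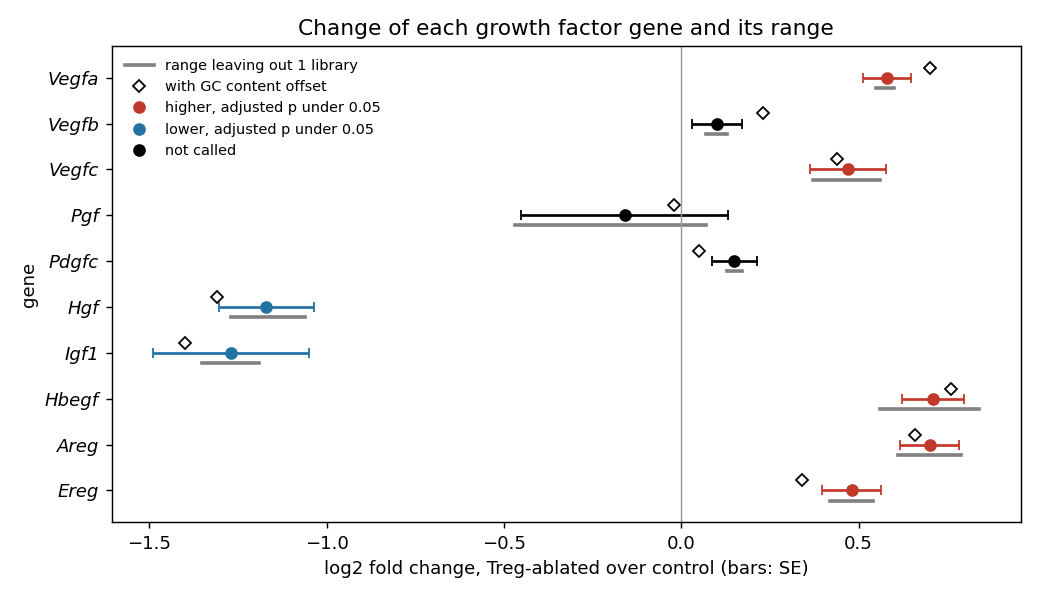
Log2 fold change of each gene, Treg-ablated over control, from edgeR with 2 and 3 libraries. Circles with bars are the estimate and its SE, open diamonds the estimate with an offset for GC content, and grey lines the range when each library is left out in turn. Vegfa, Vegfc, Hbegf, Areg and Ereg lie between 0.47 and 0.71, Hgf and Igf1 at −1.17 and −1.27, and only the grey line of Pgf crosses 0.

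The rises were modest and the falls larger. Tested against a fold of 1.5, no member was higher (0 by edgeR at an adjusted p under 0.05, 2 at an unadjusted p under 0.05), where 0.672% of all tested genes were. By the same test Hgf was lower (edgeR adjusted p = 0.0214), as were 0.158% of all tested genes. DESeq2, tested against no change, called the same 5 members higher and the same 2 lower. GC content moved with the fold change over the whole table, with a Spearman correlation of −0.336 across 14537 genes, given as a description since genes are not independent. With the GC content offset the 5 rises and 2 falls remained, at log2 fold changes of 0.70 for Vegfa, 0.44 for Vegfc, 0.76 for Hbegf, 0.66 for Areg, 0.34 for Ereg, −1.31 for Hgf and −1.40 for Igf1, and Vegfb joined them as higher. Of all tested genes 10.7% were then called higher and 9.14% lower.

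Several lists of cell type markers moved with these genes. Counts of calls in these lists and the lists further below stand beside 13.5% higher and 12.3% lower over all tested genes. Macrophage markers fell in 15 of 20 genes and rose in 0 (edgeR; 0 also at an unadjusted p under 0.05 and by DESeq2), with summed levels of 306 to 364 CPM after ablation, against 568 to 588 CPM in controls, and none of them was at 0. The falls of Hgf and Igf1 stand beside this, and the part of the macrophage list in them was not tested. T and NK cell markers rose in 14 of 16 genes, with sums of 105 to 110 CPM after ablation, against 29.0 to 36.0 CPM in controls. Mast cell and basophil markers rose in 7 of 9 genes tested of 10 listed, with sums of 87.9 to 91.3 CPM after ablation, against 61.0 to 69.3 CPM in controls, and 4 rose without Treg-ablated replicate 2 or control replicate 2. Neither list had a gene at 0 in all libraries, and their part in the rises of Areg, Ereg, Hbegf, Vegfa and Vegfc was not tested.

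Fibroblast markers fell in 11 and rose in 3 of 22 genes, and 7 fell without control replicate 2. Their sums overlapped, at 22960 to 25650 CPM after ablation and 24850 to 29160 CPM in controls. The median log2 fold change of the list was −0.34. Its median level was nevertheless higher after ablation, at 41.9 and 41.5 CPM per kilobase, against 29.7 to 31.8 in controls. Pericyte markers fell in 2 of 9 genes tested, with sums of 40.7 to 42.2 CPM after ablation, against 47.8 to 52.0 CPM in controls, and in 0 without Treg-ablated replicate 1, Treg-ablated replicate 2 or control replicate 1, and in 1 without control replicate 3. Endothelial markers, the cells on which VEGF acts, were low, at 22.5 to 25.7 CPM in sum over 17 genes after ablation, against 25.3 to 28.9 CPM in controls. None of the 9 tested was called (edgeR; 0 higher and 1 lower at an unadjusted p under 0.05, 0 by DESeq2). Epithelial markers had sums of 261 to 304 CPM after ablation and 295 to 320 CPM in controls, none of 5 tested was called (0 higher and 1 lower at an unadjusted p under 0.05, 0 by DESeq2), and Esrp1 was at 0 in all libraries. Neutrophil markers rose in 1 of 4 genes tested, with sums of 10.4 to 12.5 CPM after ablation, against 8.71 to 9.62 CPM in controls; that call ended when Treg-ablated replicate 1 or either of control replicates 1 and 2 was left out. Dendritic cell markers rose in 2 and fell in 1 of 8, the fall being lost without Treg-ablated replicate 1 or control replicate 2, with sums of 75.2 to 75.6 CPM after ablation, against 62.1 to 64.8 CPM in controls.

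**Figure D3:**
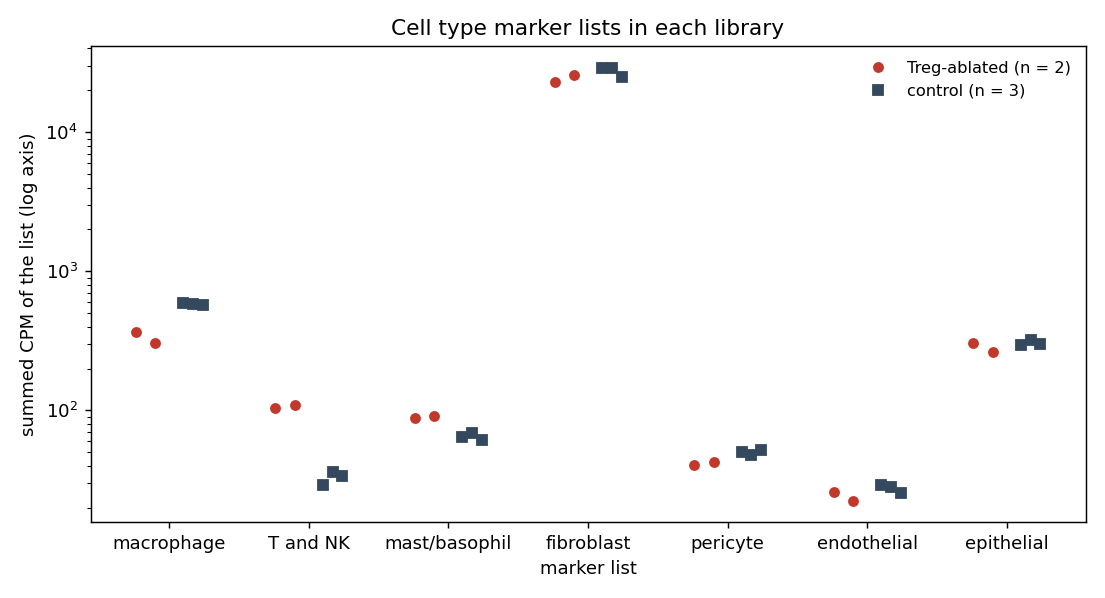
Summed CPM of the genes of 7 cell type marker lists in each library (log axis; circles: Treg-ablated, n = 2; squares: control, n = 3). The macrophage sum is lower and the T and NK cell and mast cell sums are higher in both Treg-ablated libraries than in every control, while the fibroblast sum overlaps and exceeds all others.

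Of all tested genes 13.5% were called higher and 12.3% lower, and so short a list of receptor genes cannot show a departure from those shares. Of 6 VEGF and PDGF receptor genes tested, 1 fell, 0 rose (edgeR; 0 also at an unadjusted p under 0.05 and by DESeq2) and 5 did not pass, with a median log2 fold change of −0.16. Without Treg-ablated replicate 2 the falls numbered 2. The gene that fell was Pdgfrb, which encodes a PDGF receptor of pericytes and fibroblasts: 6.998 and 10.6 CPM after ablation, against 16.4, 16.1 and 16.02 CPM in controls (log2 fold change −0.90, SE 0.152, edgeR adjusted p = 0.00280). Pdgfra, the receptor gene for PDGF-CC that marks fibroblasts, had a log2 fold change of −0.21 (SE 0.0791, edgeR adjusted p = 0.0704). Kdr, which encodes VEGF receptor 2, had 0.946 and 0.905 CPM after ablation, against 1.68, 1.40 and 0.836 CPM in controls, and Nrp2, a co-receptor for VEGF-C, had 351 and 382 CPM after ablation, against 412, 401 and 369 CPM in controls. Neither passed.

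Of the HGF and IGF axis, 1 gene rose, 3 fell and 11 did not pass among 15 tested of 20 listed, with a median log2 fold change of −0.15. Igfbp5, an IGF-binding protein gene, fell 1.84-fold (3.40 and 3.70 CPM after ablation, against 7.12, 7.06 and 5.22 CPM in controls; edgeR adjusted p = 0.00801). Igf2r, which encodes the receptor that clears IGF-2, fell 1.29-fold and Igfbp6, another IGF-binding protein gene, 1.20-fold. The gene that rose was St14, which encodes matriptase, a protease that activates HGF. It had 0.756 and 0.679 CPM after ablation, against 0.201, 0.351 and 0.209 CPM in controls (edgeR adjusted p = 0.0419). In control replicates 1 and 3 this level equals 3 counts. The list had 0 rises with DESeq2, with either alternative filter and with the replicate block. It kept 1 rise with RLE factors, library size alone, limma-voom and the GC content offset. Without control replicate 2 none of these 4 calls held, and the list had 0 rises also when Treg-ablated replicate 1 or either of control replicates 1 and 3 was left out. The receptor genes Met and Igf1r, singled out here as those of HGF and IGF-1 after their values were seen, did not pass, at −0.18 (SE 0.0875) and −0.28 (SE 0.137) on the log2 scale.

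The other EGF-family ligands were low. Of 8 listed, 4 could be tested, and Btc and Tgfa, the gene for transforming growth factor alpha, rose. Tgfa had 3.03 and 3.85 CPM after ablation, against 2.28, 1.75 and 2.23 CPM in controls (log2 fold change 0.72, SE 0.222, edgeR adjusted p = 0.0359). Egf did not pass (log2 fold change 0.34, SE 0.225), nor did Nrg4 (0.05, SE 0.473). DESeq2 called none of the 4, nor was any called without control replicate 2 or without Treg-ablated replicate 2, and without Treg-ablated replicate 1 the count was 1.

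Among 11 tested genes of ERBB receptors, sheddases and their regulators, 3 rose, 3 fell and 5 did not pass, with a median log2 fold change of −0.04. Cd9, a tetraspanin that binds the HB-EGF precursor, rose 1.25-fold, Adam9, a membrane protease gene, 1.24-fold, and Errfi1, a feedback inhibitor of EGF receptors, 1.18-fold (edgeR adjusted p = 0.0116, 0.0118 and 0.0228). Erbb2, the co-receptor of the family, fell 1.24-fold to 31.6 and 28.8 CPM after ablation, against 38.3, 38.2 and 36.2 CPM in controls (edgeR adjusted p = 0.0185). Lrig1, which restrains EGF receptors, and Adam12, a protease of mesenchymal cells, also fell (log2 fold changes −0.26 and −0.59) and were named after their values were seen. Egfr, the receptor gene for all 3 EGF-family members, and Adam17, their sheddase, were named in the same way: Egfr had 78.5 and 95.5 CPM after ablation, against 102, 94.1 and 89.0 CPM in controls, Adam17 had 198 and 225 CPM after ablation, against 202, 183 and 180 CPM in controls, and neither passed. Without control replicate 2 no gene of this list was called, without Treg-ablated replicate 2 there was 1 in each direction, and without Treg-ablated replicate 1 there were 2 rises and 1 fall.

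Genes that growth factor signalling through ERK is known to induce rose in 8 and fell in 0 of 17 (edgeR; 2 lower at an unadjusted p under 0.05, 0 by DESeq2), with a median log2 fold change of 0.22. Myc, the growth-promoting transcription factor gene, had 505 and 491 CPM after ablation, against 317, 330 and 326 CPM in controls (log2 fold change 0.62, SE 0.0631, edgeR adjusted p = 0.000269). Phlda1 and Dusp5, which encode an adaptor protein and a phosphatase that switches off ERK, rose 1.62-fold and 1.38-fold, and Egr1, an immediate-early transcription factor gene, 1.30-fold. Other members of the list did not pass, among them Dusp6 and Etv4, named after their values were seen, at log2 fold changes of 0.12 and −0.11. The 2 genes lower at an unadjusted p under 0.05, where 10 were higher, were Spry4 and Etv5. Also named after their values were seen, they had log2 fold changes of −0.19 and −0.20 (edgeR adjusted p = 0.0783 and 0.0764).

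Of 23 tested regulators of angiogenesis outside the 10 genes, 2 rose and 5 fell, with a median log2 fold change of −0.11. Over all tested genes 13.5% were called higher and 12.3% lower, and a departure of this list from those shares was not tested. Angptl4, a lipase inhibitor gene induced by low oxygen, had 26.1 and 22.9 CPM after ablation, against 12.6, 14.6 and 12.8 CPM in controls (log2 fold change 0.88, SE 0.108, edgeR adjusted p = 0.000639), and Adm, which encodes the vessel-dilating peptide adrenomedullin, rose 1.59-fold. Thbs1, which encodes the angiogenesis inhibitor thrombospondin-1, fell 1.56-fold to 81.0 and 84.9 CPM after ablation, against 150, 128 and 111 CPM in controls (log2 fold change −0.65, SE 0.109, edgeR adjusted p = 0.00267). Col18a1, whose collagen is the source of endostatin, fell 1.35-fold. Angptl2, Serpinf1, which encodes the inhibitor PEDF, and Sema3e, a guidance factor for vessels, fell by less (log2 fold changes −0.30, −0.32 and −0.26) and were named after their values were seen. Without control replicate 2 there were 2 falls.

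The hypoxia list held genes induced by low oxygen, the best known stimulus of Vegfa. It also held genes of the oxygen-sensing pathway itself: Hif1a, Epas1, Arnt and Vhl, named after their values were seen. Of 27 genes 9 rose, Epas1 among them, 2 fell and 16 did not pass, with a median log2 fold change of 0.12. Hk2, a hexokinase gene, rose 1.48-fold (339 and 328 CPM after ablation, against 227, 244 and 205 CPM in controls; edgeR adjusted p = 0.00116), Bnip3, a mitophagy gene, 1.39-fold and Mxi1, a MYC antagonist gene, 1.32-fold. Pfkfb4, which encodes a regulator of glycolysis, fell 1.74-fold, and Vhl, which marks hypoxia-inducible factors for destruction and was named after its value was seen, fell 1.18-fold. The glycolysis genes Slc2a1, Ldha and Aldoa, also named after their values were seen, had log2 fold changes of −0.07, −0.10 and −0.13 without passing. Without control replicate 2 the list had 3 rises, and it had 1 fall when Treg-ablated replicate 2 or either of control replicates 2 and 3 was left out.

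**Figure D4:**
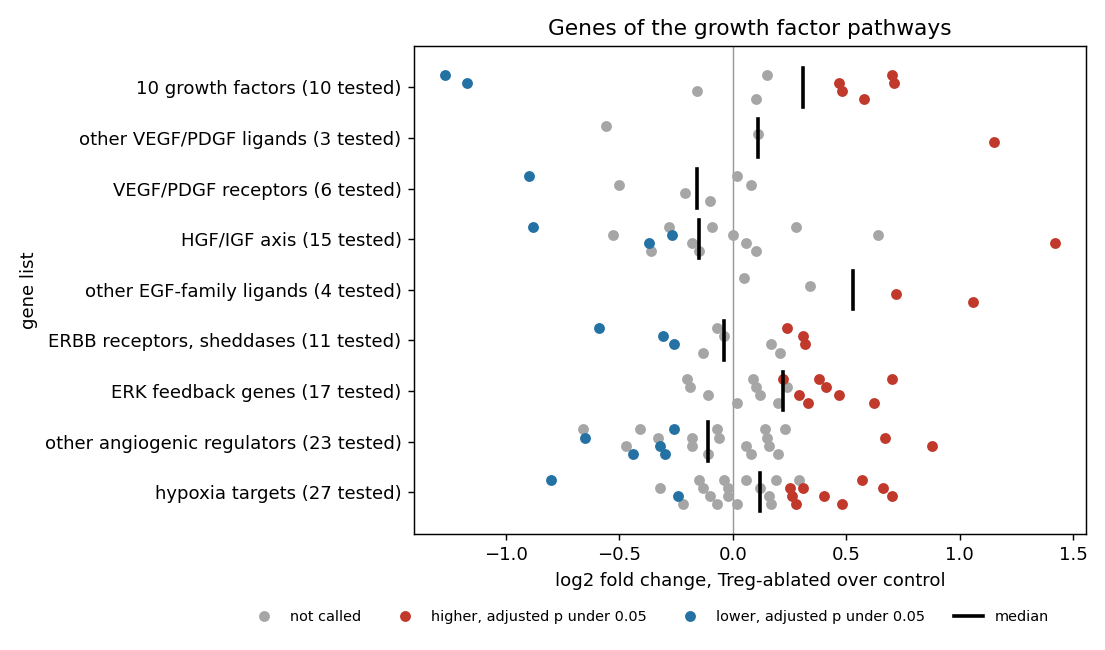
Log2 fold change, Treg-ablated over control (2 and 3 libraries), of the tested genes of the 10 growth factors and 8 related lists. Each point is a gene, coloured where its adjusted p was under 0.05, spread vertically to separate points, and black bars are medians. The medians run from −0.16 for VEGF and PDGF receptors to 0.53 for the other EGF-family ligands.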

How the data were processed

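RNA-seq gene counts of 5 libraries (2 Treg-ablated, 3 control) were grouped and numbered by sample title; the names of the deposited files number the Treg-ablated libraries 2 and 3 instead of 1 and 2. The deposited values are raw fragment counts from featureCounts 1.6.2, per the file headers, summed over exons of a filtered Ensembl 83 annotation (GRCm38) with no strand or multi-mapping option; the labels name a stranded kit. Subread 1.6.2 and DESeq2 1.16.1 are named in the submitters' processing notes. Symbols were joined by Ensembl identifier (46488 of 46983 genes).

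Counts were filtered with filterByExpr, scaled by TMM and tested with the edgeR 4.0.16 quasi-likelihood test in R 4.3.3 (no block, Benjamini-Hochberg adjustment over 14580 genes). The SE is the absolute log2 fold change over the root of the F statistic. CPM per kilobase divides by the exon length in the files. A count of 3 equals 0.150 to 0.226 CPM. Replicates differed beyond sampling noise (chi-square per degree of freedom 3.88 to 7.24). The fit was also run on simulated counts with 200 changed genes. That is far fewer than the 3758 called here, so the run does not measure the error rate of these calls.

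The 10 members and all lists were chosen with earlier results of these data known. Named genes are all members and the up to 4 tested genes with the smallest p in each of 8 lists; others are marked as named after their values were seen. Alternatives were RLE factors, library size alone, 2 filters, DESeq2 1.42.0, limma-voom (limma 3.58.1), a test against a fold of 1.5, a replicate block, a lowess offset on GC content (GENCODE M21 transcripts) and leaving out each library; without 1 Treg-ablated library the other is assumed to vary like the controls.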

Additional observations from a re-analysis of the deposited data

How the results depend on the processing

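The 5 rises and 2 falls among the 10 genes kept their direction under all 14 alternatives. The counts of 5 higher and 2 lower changed only with the test against a fold of 1.5 (0 and 1), with the GC content offset (6 higher, Vegfb added), and without Treg-ablated replicate 1 or control replicate 2, where Vegfc was lost; leaving out single libraries gave 4 to 5 higher and 2 lower. Pgf, not called in any fit, ran from −0.47 to 0.07 without 1 library, changing sign without Treg-ablated replicate 2. Igf1 missed the threshold only when tested against a fold of 1.5 (adjusted p = 0.119 by edgeR).

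Over all genes, 1971 were higher and 1787 lower. Tested against a fold of 1.5 these were 98 and 23, with the replicate number as a block 1296 and 1116, and without 1 library 812 to 1687 and 554 to 1538, the lowest without control replicate 2. The 8 lists together had 26 higher and 14 lower genes, against 1 and 0 for a fold of 1.5, 15 and 8 with the replicate block, and 12 to 23 and 4 to 14 without 1 library. The causes were not tested. The block changed no call among the 10 genes. Libraries with the same number in the titles did not deviate together (r = −0.226 and −0.021 over 14580 genes). Neither pair that shares a number in the file names passed 0.1 (r = 0.021 and −0.199). With only 2 Treg-ablated libraries their deviations from the group mean mirror each other. The r values are therefore not independent, and the check cannot exclude pairing. Neither numbering was taken to pair the libraries. By the titles control replicate 3 has no counterpart. With the GC content offset 61.3% of 3758 calls were kept. Depth limits Pgf, Igf1 and the low ligands most.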
